A study of Mus musculus with 6 samples.

Results

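The cytochrome P450 genes of the mouse uterus were examined with the *Cyp26* genes of retinoic acid breakdown set aside, together with *Por*, *Ahr*, *Ahrr*, *Nqo1* and *Tiparp*. Members were taken by symbol, as every *Cyp* gene with a family number and these 5 partners, which gave 103 of 23420 genes, 98 of them P450 genes or pseudogenes. *Foxo1f/f* and *Foxo1d/d* females on a C57BL/6J background were 8 weeks of age, had been mated with vasectomized males, and gave their uteri for sequencing on pseudopregnancy day (PPD) 4.5. Each genotype had 3 libraries, and each library held the pooled RNA of 2 females. The *Foxo1f/f* controls carried the floxed alleles without Cre. The *Foxo1d/d* females carried the same alleles and Cre recombinase at 1 copy of the *Pgr* locus (PgrCre/+), so that deletion was limited to cells that express PGR or descend from such cells, while blood vessels keep FOXO1. The Cre allele itself therefore also differed between the groups. The RNA came from uteri without separation of LE, GE, stroma, muscle and vessels.

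Cytochrome P450 enzymes are heme proteins that insert oxygen into sterols, steroids, fatty acids, vitamins and foreign compounds. Those of the endoplasmic reticulum take their electrons from POR, and those of mitochondria take them from ferredoxin. The aryl hydrocarbon receptor AHR is a ligand-activated transcription factor that pairs with ARNT, binds DNA at a short core sequence and induces the family 1 P450 genes, among them *Cyp1b1*, whose enzyme hydroxylates estradiol in steroid-responsive tissues such as the uterus. AHRR and TIPARP are themselves induced by AHR and hold it in check.

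The deposited values gave each gene's raw count averaged over the libraries of a genotype. All means multiplied by 3 were whole within 1e-06, so the summed counts could be recovered, 78375043 in *Foxo1f/f* uteri and 81773890 in *Foxo1d/d* uteri. A library held 26125014 and 27257963 counts on average. The 10 genes with the most counts took up 2.95% of the counts in *Foxo1f/f* against 2.80% in *Foxo1d/d* uteri. Levels are given as mean counts, or as counts scaled so that the genes of a genotype sum to 1000000 (CPM). The log2 ratio of *Foxo1d/d* to *Foxo1f/f* was taken from the scaled mean counts after a pseudocount of 1 was added, and genes were called past 1.5-fold by this ratio, while fold values are printed without the pseudocount. The interval printed beside a ratio is the exact 95% Clopper-Pearson interval of the summed counts. The interval reflects error of counting alone and no difference between pools of mice. Counts of single libraries were not analysed here, so no value has an SD and no test between genotypes was run. The authors' p-value and FDR of each gene were not used. Higher and lower below describe these pooled means. In RNA of a whole organ, fewer cells of a type and less RNA per cell cannot be told apart.

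*Foxo1*, the deleted gene, was lower in the libraries labelled as its deletion. It averaged 3941 counts in *Foxo1f/f* against 1456 in *Foxo1d/d* uteri, which is 151 and 53.4 CPM. The log2 ratio was -1.498 (interval -1.55 to -1.45). *Foxo1* lies on chr3:52268337-52350109 (GRCm38.p6), and reads on the whole gene were counted, inside and outside the floxed part.

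Of the 103 members, 29 had no count in either genotype and 37 were counted but had a mean count under 10 over both genotypes. The other 37 passed that minimum, 21 of them with a mean count of 100 or more and 9 with 1000 or more. Among the 37, 6 were over 1.5-fold higher in *Foxo1d/d* uteri, or 16.2%, where the share over all 15696 genes at that minimum was 5.43%. Over 1.5-fold lower were 3 members, or 8.11%, beside 3.51% of all genes. The higher ones were *Cyp2e1*, *Cyp3a16*, *Cyp3a57*, *Cyp2f2*, *Cyp4f18* and *Cyp1a1*, and the lower ones were *Cyp1b1*, *Cyp2c44* and *Tiparp*. *Cyp3a16* averaged 5.67 counts in *Foxo1f/f* uteri and so passed the minimum through its counts in *Foxo1d/d* uteri, the only member with 1 genotype under it, beside 236 of all genes. In all, 16 members were higher and 21 lower, or 43.2% and 56.8%, where 55.1% and 44.9% of all genes were, with a median log2 ratio of -0.08 beside 0.02 for all genes, and a median absolute ratio of 0.26 beside 0.14. The counting interval lay wholly above 0 for 12 members and wholly below 0 for 14, or 32.4% and 37.8%, beside 36.4% and 27.1% of all genes.

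The members past 1.5-fold were spread unevenly over the range of counts. With the members split by their counts, a split chosen after the values were seen, 2 of the 21 that averaged 100 or more were past 1.5-fold in either direction, or 9.52%, beside 5.31% of all such genes. Those 2 were *Cyp1b1* and *Tiparp*. Of the 16 members with a mean count from 10 to under 100, 7 were past 1.5-fold, or 43.8%, where the share of all genes in that range was 26.1%. All 6 of the higher members were in this range of few counts.

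**Figure D1:**
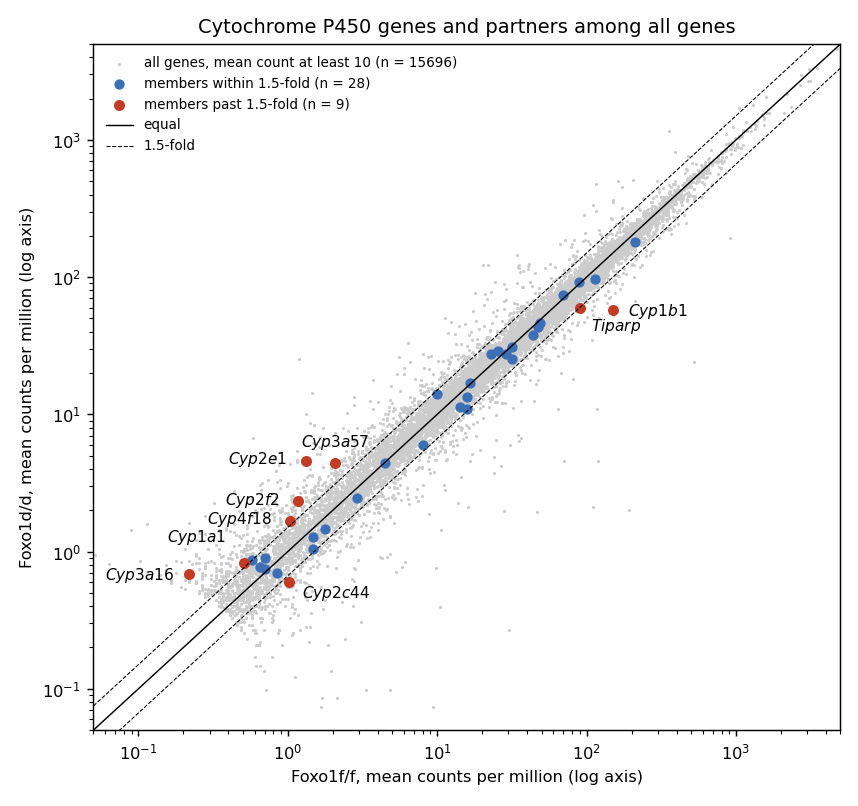
Mean counts as CPM in Foxo1f/f (horizontal, log axis) and Foxo1d/d uteri (vertical, log axis) for all genes counted 10 or more times on average (grey) and for the members within (blue) and past (red) 1.5-fold. Genes without a count in a genotype cannot be drawn on a log axis. Most members follow the line of equal values, *Cyp1b1* and *Tiparp* lie under it at high counts, and the 6 higher members lie at low counts.

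The receptor itself differed little between the genotypes. *Ahr*, on chr12:35497979-35534989, had mean counts of 1827 in *Foxo1f/f* against 2028 in *Foxo1d/d* uteri (log2 ratio 0.09, interval 0.04 to 0.14). *Ahrr*, the repressor that competes with AHR for ARNT, had mean counts of 75.7 and 66.7, and the interval of its ratio of -0.24 ran from -0.53 to 0.04. *Tiparp*, which encodes the ADP-ribosyltransferase that limits AHR activity, was lower in *Foxo1d/d* uteri. It averaged 2356 counts in *Foxo1f/f* against 1624 in *Foxo1d/d* uteri, a 1.51-fold difference (log2 ratio -0.60, interval -0.65 to -0.55). That value lies just past the 1.5-fold line, at a log2 ratio of 0.58 in either direction, and its interval includes the line. *Tiparp*, on chr3:65528447-65555518, overlaps the long noncoding gene *4931440P22Rik*, whose summed counts of 78 and 74 are few beside its own 7068 and 4872.

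Of the family 1 genes, *Cyp1b1* had the larger difference and by far the more counts. It averaged 3953 counts in *Foxo1f/f* against 1564 in *Foxo1d/d* uteri, or 151 and 57.4 CPM. *Foxo1d/d* uteri thus held 2.64-fold less (log2 ratio -1.40, interval -1.45 to -1.35). The gene lies on chr17:79706940-79715061. *Cyp1a1*, the classical AHR-induced hydroxylase of polycyclic hydrocarbons, went the other way at a low level. Its summed counts were 40 in *Foxo1f/f* against 67 in *Foxo1d/d* uteri, and the log2 ratio of 0.64 had a wide interval of 0.10 to 1.29. *Cyp1a2*, its neighbour on chromosome 9, had no count in either genotype. *Cyp1a1* shares 1.84% of its 90-base words, the length of the trimmed reads, with *Cyp1a2*, and *Cyp1b1* shares none with another *Cyp* gene.

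Promoters were searched for the core sequence that AHR and ARNT bind, because AHR-induced genes on the same list had ratios of opposite sign. Of the AHR-induced members, the promoters of *Cyp1b1*, *Tiparp*, *Cyp1a1* and *Ahrr* are shown. They run from 250 bases before to 50 after a transcription start, are taken from RefSeq (GRCm38.p6) and are written 5′ to 3′ on the strand of the gene, with GCGTG and its reverse complement CACGC in capitals. Of the 103 members, 74 had such a sequence, as did 29 of the 37 counted 10 or more times on average. The regions are chr17:79715012-79715311 on the minus strand for *Cyp1b1*, chr3:65528197-65528496 on the plus strand for *Tiparp*, chr9:57697363-57697662 on the plus strand for *Cyp1a1* and chr13:74292282-74292581 on the minus strand for *Ahrr*. For *Cyp1a1* the start lies inside the RefSeq span of the gene, chr9:57687928-57703824.
Cyp1b1: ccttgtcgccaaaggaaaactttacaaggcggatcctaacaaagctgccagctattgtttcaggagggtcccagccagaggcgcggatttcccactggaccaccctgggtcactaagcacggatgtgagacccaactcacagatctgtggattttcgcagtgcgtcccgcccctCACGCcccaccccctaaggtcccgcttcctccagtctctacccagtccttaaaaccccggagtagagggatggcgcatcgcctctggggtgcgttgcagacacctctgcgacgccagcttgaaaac
Tiparp: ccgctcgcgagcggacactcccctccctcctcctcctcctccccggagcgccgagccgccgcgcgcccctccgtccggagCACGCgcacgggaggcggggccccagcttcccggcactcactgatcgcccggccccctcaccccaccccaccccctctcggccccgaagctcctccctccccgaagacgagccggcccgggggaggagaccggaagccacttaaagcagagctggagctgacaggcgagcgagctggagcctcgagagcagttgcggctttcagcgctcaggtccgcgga
Cyp1a1: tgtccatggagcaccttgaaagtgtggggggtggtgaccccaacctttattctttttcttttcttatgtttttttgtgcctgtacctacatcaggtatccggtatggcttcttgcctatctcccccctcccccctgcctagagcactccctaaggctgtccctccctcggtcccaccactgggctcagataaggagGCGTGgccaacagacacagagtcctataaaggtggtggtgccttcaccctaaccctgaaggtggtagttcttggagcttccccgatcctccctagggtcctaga
Ahrr: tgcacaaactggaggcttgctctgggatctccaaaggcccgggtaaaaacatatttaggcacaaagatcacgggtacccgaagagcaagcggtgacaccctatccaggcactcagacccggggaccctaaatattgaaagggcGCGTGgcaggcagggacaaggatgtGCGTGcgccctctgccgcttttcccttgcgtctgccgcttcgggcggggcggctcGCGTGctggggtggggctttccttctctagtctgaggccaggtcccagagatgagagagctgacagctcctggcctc

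The core was found once in *Cyp1b1*, from base -76 relative to the start, as CACGC, and once in *Tiparp*, from base -170, also as CACGC. In *Cyp1a1* it was found once, as GCGTG from base -54, and in *Ahrr* at -107, -82 and -27. *Nqo1* and *Cyp2s1*, which AHR can also induce and whose windows are not printed, did not hold these letters, and neither did *Cyp2e1*. Of the members counted 10 or more times on average, 13 of 29 promoters held the core on either strand, or 44.8%. It was present in 48.7% of the promoters of all genes at that minimum. Over all 74 members with a promoter, 19 held it, or 25.7%, beside 32.5% of all 27025 promoters. The lower *Cyp1b1* and *Tiparp* and the higher *Cyp1a1* thus all held the core. Among members that passed the minimum, the share with it was near that of all genes at that minimum. A match describes letters in a sequence and not a bound site.

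The genotypes differ in a forkhead factor, and the forkhead core GTAAACA, with its reverse complement TGTTTAC, was searched for in the same windows. It was found in 3.55% of all promoters, in 2.44% of those of genes counted 10 or more times on average, and in 1 of the 29 members that passed. The whole share of the members thus rests on *Cyp3a16*, which passed the minimum only through its counts in *Foxo1d/d* uteri. *Cyp3a16* is a P450 of the steroid and drug oxidizing family 3. Its promoter window is chr5:145469674-145469973 on the minus strand, with the match from base -190 in capitals.
Cyp3a16: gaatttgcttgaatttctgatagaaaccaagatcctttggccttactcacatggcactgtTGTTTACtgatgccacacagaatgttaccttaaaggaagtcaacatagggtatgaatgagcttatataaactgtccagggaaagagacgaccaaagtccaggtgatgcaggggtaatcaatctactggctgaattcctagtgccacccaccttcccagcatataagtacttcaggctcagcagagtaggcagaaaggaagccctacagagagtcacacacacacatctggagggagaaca
No other promoter of the members past 1.5-fold held these letters, with 8 of the 9 in the table of promoters. Over all 74 members, 8 promoters held the core, and 5 of those belong to neighbouring *Cyp3a* genes.

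The other genes of AHR signaling differed in both directions. *Arnt2*, a partner of the same family as ARNT, was over 1.5-fold lower, with mean counts of 2071 and 1272 (log2 ratio -0.76, interval -0.82 to -0.71). *Arnt*, at mean counts of 3645 and 3797, had a ratio of -0.00. Of the 9 genes listed as induced by AHR, 6 passed, with a median log2 ratio of -0.26. *Cyp1a1*, with summed counts of only 40 and 67, was over 1.5-fold higher, and *Cyp1b1* and *Tiparp* were over 1.5-fold lower. Of all genes, 5.43% were over 1.5-fold higher and 3.51% lower. Of the 6, 2 were higher and 4 lower in either degree, where 55.1% and 44.9% of all genes were. The summed level of the list was 271 CPM in *Foxo1f/f* against 148 CPM in *Foxo1d/d* uteri, and *Cyp1b1* had the most counts. *Ugt1a6a*, a glucuronidating enzyme whose last exons are shared by the genes of its locus, had a log2 ratio of -0.29. *Aldh3a1* had only 10 and 3 summed counts, and *Gsta1* and *Cyp1a2* had none.

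*Nqo1*, the quinone reductase that both AHR and the oxidative stress factor NRF2 induce, was higher in *Foxo1d/d* uteri without reaching 1.5-fold. It averaged 259 counts in *Foxo1f/f* against 386 in *Foxo1d/d* uteri, a 1.43-fold difference (log2 ratio 0.51, interval 0.38 to 0.64). The other genes of the NRF2 axis differed less. Of the 8 with *Nqo1* included, none was past 1.5-fold and 5 were higher, near the 55.1% of all genes that were, and the median ratio was 0.19. *Srxn1*, which repairs oxidized peroxiredoxins, had a ratio of 0.44, *Txnrd1*, the cytosolic thioredoxin reductase, one of 0.34, and *Gclm* and *Gclc* of glutathione synthesis had ratios of -0.10 and -0.01. The transcript of NRF2 itself, *Nfe2l2*, had a ratio of -0.00.

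The transcript of the main electron donor of P450 enzymes was close to equal in the genotypes. *Por* had mean counts of 2329 in *Foxo1f/f* against 2519.7 in *Foxo1d/d* uteri (log2 ratio 0.05, interval 0.01 to 0.10). Of the 7 genes found on the electron donor list, which also holds *Pgrmc1* and *Pgrmc2*, 6 were higher, where 55.1% of all genes were. *Pgrmc1* was lower at -0.05. None of the 7 was past 1.5-fold, and the median was 0.13. *Cyb5b*, the cytochrome b5 of the outer mitochondrial membrane, had a log2 ratio of 0.47, and *Cyb5r3*, the reductase that feeds cytochrome b5, one of 0.25. The mitochondrial donors *Fdx1* and *Fdxr* had ratios of 0.20 and 0.13. Heme, which every P450 enzyme needs, is made in steps whose genes differed in both directions by less than 1.5-fold. *Alad* had a log2 ratio of 0.40 and *Alas1*, which encodes the first enzyme of the pathway, of 0.36, while some other genes of the synthesis were lower, down to -0.14.

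**Figure D2:**
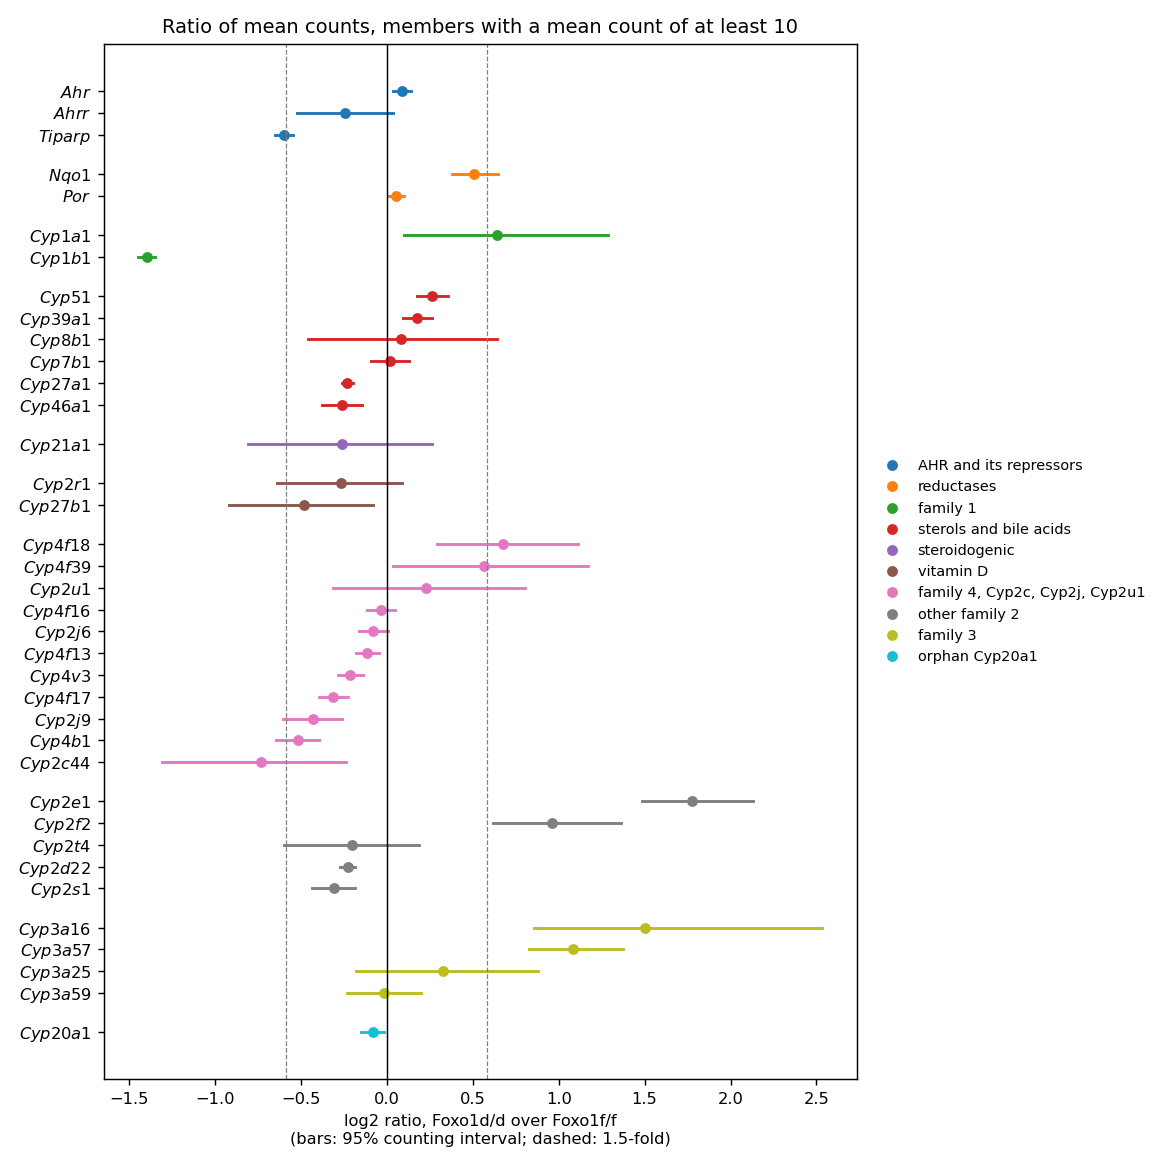
Log2 ratio, Foxo1d/d to Foxo1f/f, of mean counts (horizontal) for the 37 members counted 10 or more times on average, grouped and coloured by role. Points are ratios with a pseudocount of 1, bars are 95% counting intervals and dashed lines mark 1.5-fold. *Cyp1b1* is the lowest at -1.40 and *Cyp2e1* the highest at 1.77, and the long bars belong to genes with few counts.

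Of the 7 sterol metabolizing P450 genes, 6 passed the minimum, and these were within 1.5-fold. *Cyp51*, the demethylase of cholesterol synthesis, had mean counts of 595 in *Foxo1f/f* against 746 in *Foxo1d/d* uteri (log2 ratio 0.26, interval 0.17 to 0.36). *Cyp27a1*, the mitochondrial sterol hydroxylase of bile acid synthesis, had mean counts of 5496 and 4886 and a ratio of -0.23 (interval -0.26 to -0.20). *Cyp39a1* and *Cyp7b1*, which hydroxylate oxysterols, had ratios of 0.18 and 0.02, and the sign of the latter turned when ratios were centred on the median gene or scaled by the upper quartile. *Cyp46a1*, a cholesterol hydroxylase best known from neurons, had a ratio of -0.26. *Cyp8b1*, the hydroxylase of cholic acid synthesis, had mean counts of only 18.3 and 20.3 and a ratio of 0.08. *Cyp7a1*, the rate-limiting enzyme of the classical bile acid pathway, had a summed count of 1 in each genotype.

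Transcripts of the P450 genes of steroid hormone synthesis were scarce. *Cyp21a1*, the adrenal steroid hydroxylase, was the only 1 of 6 to pass the minimum, with mean counts of 22 and 19 (log2 ratio -0.26, interval -0.81 to 0.26). It shares 8.63% of its 90-base words with its pseudogene. *Cyp11a1*, which cleaves the side chain of cholesterol in ovary and adrenal, had mean counts of 9.67 and 9. *Cyp17a1* had summed counts of 2 and 7, *Cyp19a1*, the aromatase, of 0 and 1, and *Cyp11b2* had none. Markers of the ovary and corpus luteum were within 1.5-fold where they passed the minimum. *Inha*, the most abundant per kilobase in both genotypes, had a ratio of -0.19, *Star*, with mean counts of 419 and 446, of 0.03 and *Amh* of -0.35, and the other 5 of 8 had mean counts under 10, among them *Fshr* and *Hsd3b1* at 0 in *Foxo1d/d* uteri. The summed level of the list was 33.7 and 31.8 CPM.

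The P450 genes that activate vitamin D were a little lower in *Foxo1d/d* uteri at modest counts, and the vitamin D receptor was lower at higher counts. *Cyp27b1*, which makes the active hormone, had mean counts of 38.3 in *Foxo1f/f* against 28.3 in *Foxo1d/d* uteri (log2 ratio -0.48, interval -0.92 to -0.08). *Cyp2r1*, which carries out the preceding hydroxylation, had a ratio of -0.27, with an interval from -0.64 to 0.09. *Cyp24a1*, which inactivates the hormone and is induced by its receptor, had only 2 and 7 summed counts. The receptor gene *Vdr* had mean counts of 420 and 222 (log2 ratio -0.98, interval -1.12 to -0.85). *Vdr* belongs to a list of 11 receptors that regulate P450 genes, of which 8 passed, none was over 1.5-fold higher and 1 was over 1.5-fold lower, beside 5.43% and 3.51% of all genes, with a median of -0.03. *Nr1h3*, the oxysterol receptor LXRα, had mean counts of 968 and 686 and a ratio of -0.56. *Nr1i2*, the receptor PXR that induces *Cyp3a* genes, had mean counts of 3.33 and 8.00.

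The largest role group was that of fatty acid and eicosanoid P450 genes, which holds family 4 and the *Cyp2c*, *Cyp2j* and *Cyp2u1* genes. Of its 44 members, 14 had no count and 11 passed the minimum, 3 of them higher and 8 lower in *Foxo1d/d* uteri, with a median log2 ratio of -0.12. *Cyp2c44*, an epoxygenase of arachidonic acid that RefSeq now names *Cyp2c23*, was 1.70-fold lower. Its summed counts were 80 in *Foxo1f/f* against 49 in *Foxo1d/d* uteri (log2 ratio -0.74, interval -1.31 to -0.24). *Cyp4b1*, a family 4 enzyme that also activates foreign compounds, had mean counts of 411 and 299 and a ratio of -0.52 (interval -0.65 to -0.40). *Cyp2j9* had mean counts of 210 and 162 and a ratio of -0.43. The well counted *Cyp4f17*, *Cyp4v3*, *Cyp4f13*, *Cyp2j6* and *Cyp4f16* had ratios of -0.31, -0.21, -0.12, -0.08 and -0.03. The intervals of *Cyp2j6* and *Cyp4f16* included 0. Thus 8 of the 11 that passed were lower, where 44.9% of all genes were, and those with a mean count of 100 or more over both genotypes were within 1.5-fold.

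The higher members of the group had few counts. *Cyp4f18*, which hydroxylates leukotriene B4 in leukocytes, had summed counts of 81 in *Foxo1f/f* against 137 in *Foxo1d/d* uteri (log2 ratio 0.68, interval 0.29 to 1.11). *Cyp4f39*, which makes the very long hydroxy fatty acids of the skin barrier, had summed counts of 45 and 71 and a ratio of 0.56 (interval 0.04 to 1.17). Its fold of 1.51 without the pseudocount lies just past the line, its ratio with the pseudocount of 1 does not, and with a pseudocount of 0.1 it was over 1.5-fold higher. *Cyp2u1* had a ratio of 0.23, with an interval that included 0. Leukocyte markers were higher beside *Cyp4f18*, with 4 of 5 found and all 4 of them higher, where 55.1% of all genes were. Of the 4, 1 was over 1.5-fold higher, beside 5.43% of all genes. *Cd3e* of T cells had a ratio of 1.09, *Itgax* of 0.58, *Ptprc*, with the most counts, of 0.40 and *Cd68* of 0.13, none was at 0, and their summed level was 140 CPM in *Foxo1f/f* against 183 CPM in *Foxo1d/d* uteri. Their part in the level of *Cyp4f18* was not tested. Epoxide hydrolases, which act on the products of epoxygenases, were higher for 3 of 4 genes, where 55.1% of all genes were higher. Over 1.5-fold higher was 1 of the 4, beside 5.43% of all genes. The summed level of the list was 72.4 CPM in *Foxo1f/f* against 72.8 CPM in *Foxo1d/d* uteri. *Ephx3*, with mean counts of 30.7 and 48.7, had a ratio of 0.59 and was just over 1.5-fold higher, while *Ephx1* had one of -0.07, and the median of the list was 0.32.

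Among the other family 2 genes, *Cyp2e1* had the highest ratio of all members that passed. *Cyp2e1* oxidizes ethanol, acetone and other small molecules and is abundant in liver and present in adipocytes. It averaged 34.3 counts in *Foxo1f/f* against 125 in *Foxo1d/d* uteri, or 1.31 and 4.59 CPM. This is a 3.49-fold difference, with a log2 ratio of 1.77 (interval 1.48 to 2.13). All 6 of 6 adipocyte markers were over 1.5-fold higher too, where 5.43% of all genes were, with log2 ratios from 1.70 for *Lep* to 2.19 for *Cidec*. *Lep*, with mean counts of 7.67 and 28.3, passed the minimum through *Foxo1d/d* uteri, and the next lowest ratio was 1.71 for *Fabp4*. Their summed level was 16.2 CPM in *Foxo1f/f* against 58.5 CPM in *Foxo1d/d* uteri, the ratio of the sums was 1.85, *Cfd* had the most counts over both genotypes, and none was at 0. The ratio of *Cyp2e1* thus lay in the range of the adipocyte genes, and their part in it was not tested. Of the 5 hepatocyte markers, 4 were at or near 0, with mean counts of 6.00 and 4.67 for *Alb*, 0.333 and 1.00 for *Apoa1*, and no count for *Cyp2c29* and *Cyp3a11*. *Ttr*, the most abundant and the only one to pass the minimum, had mean counts of 114 and 47.3 and a ratio of -1.31, and the summed level of the list was 4.59 CPM in *Foxo1f/f* against 1.94 CPM in *Foxo1d/d* uteri.

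*Cyp2f2*, which activates naphthalene in the club cells of the lung, was 1.98-fold higher in *Foxo1d/d* uteri. Its summed counts were 92 in *Foxo1f/f* against 190 in *Foxo1d/d* uteri (log2 ratio 0.96, interval 0.62 to 1.36). *Cyp2t4*, whose substrate is not known, had a ratio of -0.20 with an interval that included 0. *Cyp2s1*, an epithelial P450 that dioxin can induce through AHR, had mean counts of 369 and 311 and a ratio of -0.31 (interval -0.44 to -0.18). *Cyp2d22* had mean counts of 2976 and 2652 and a ratio of -0.23 (interval -0.27 to -0.18). The 2 higher genes of this group thus both had mean counts under 100 over both genotypes, and *Cyp2s1* and *Cyp2d22* were lower by less than 1.5-fold. *Cyp20a1*, an orphan enzyme without a known substrate, had mean counts of 1281 and 1262 and a ratio of -0.08.

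The family 3 genes oxidize steroids and drugs in liver and gut. Of 9 members, 4 had no count and 4 passed the minimum. *Cyp3a57* was 2.14-fold higher, with summed counts of 162 in *Foxo1f/f* against 362 in *Foxo1d/d* uteri (log2 ratio 1.08, interval 0.83 to 1.38). *Cyp3a16* had summed counts of 17 and 56 (log2 ratio 1.499, interval 0.85 to 2.54). *Cyp3a25* had a ratio of 0.33 with an interval from -0.18 to 0.88, and *Cyp3a59*, with mean counts of 118 and 121, one of -0.02. All but *Cyp3a13* lie in 1 cluster, chr5:145345149-146114978, where *Cyp3a57* and *Cyp3a16* are neighbours at one end and *Cyp3a25* and *Cyp3a59* at the other. The higher pair was adjacent, and the 4 genes between the pairs had no count. *Cyp3a57* shares no 90-base word with another *Cyp* gene and *Cyp3a16* shares 0.731% with *Cyp3a11*, while *Cyp3a25* and *Cyp3a59* share 7.59% and 7.15% with each other, so their reads may have been split between them.

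Most members without a count lay in gene clusters. With neighbours defined by gaps of at most 500 kb, 72 of the 98 P450 genes lay in 8 clusters of at least 3, and 26 of the 29 members without a count were among them. The *Cyp2c* cluster, chr19:39006940-40187286, held 15 genes, of which 10 had no count and none passed the minimum. *Cyp2c44* lies outside it on the same chromosome, at chr19:44005022-44029256. The *Cyp2a*, *Cyp2b*, *Cyp2f*, *Cyp2s* and *Cyp2t* cluster, chr7:25802469-27158564, held 13 genes, of which 5 had no count and 3 passed. In the *Cyp4f* cluster, chr17:32452697-32965716, all 8 genes were counted and 4 passed, with ratios between -0.31 and 0.56. *Cyp4f39*, with summed counts of 45 and 71, was the only one of the 4 that was higher. *Cyp4f17*, *Cyp4f13* and *Cyp4f16* had ratios of -0.31, -0.12 and -0.03, and the interval of *Cyp4f16* included 0. *Cyp4f18*, *Cyp4v3*, *Cyp39a1*, *Cyp7b1*, *Cyp21a1* and *Por* overlap other RefSeq genes, and whether the counting used strand is not given in the sources used here. Of the 41 P450 members with a mean count of 5 or more that could be checked, 28 shared no 90-base word with another *Cyp* gene.

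Of the members under the minimum of 10, looked at after their values were seen, 4 had a counting interval wholly below 0 and 1 had an interval wholly above 0, or 10.8% and 2.70% of the 37 that were counted, beside 2.98% and 4.70% of all such genes. The 4 lower ones are among 9 members with a mean count from 5 to under 10, of which 4 were past 1.5-fold, or 44.4%, where the share of all genes in that range was 34%. *Cyp2b19*, a P450 of keratinocytes, had summed counts of 30 in *Foxo1f/f* against 3 in *Foxo1d/d* uteri (log2 ratio -2.52, interval -5.74 to -1.70). *Cyp4a14* and *Cyp4a10*, fatty acid hydroxylases that the receptor PPARα induces, had summed counts of 35 and 8 and of 28 and 8, with ratios of -1.85 (interval -3.51 to -1.06) and -1.56 (interval -3.21 to -0.70). *Cyp4f41-ps*, a pseudogene, had summed counts of 43 and 13 and a ratio of -1.58 (interval -2.81 to -0.87). *Cyp4a10* shares 14.8% of its 90-base words with other *Cyp4a* genes, and the other 3 share at most 0.566%. The higher member was *Cyp4x1*, an orphan of family 4, with summed counts of 7 in *Foxo1f/f* against 21 in *Foxo1d/d* uteri and a ratio of 1.20 (interval 0.24 to 3.00). Under a mean count of 5, 28 members were counted. Over all members, 5 had counts only in *Foxo1f/f* and 5 only in *Foxo1d/d* uteri, each 4.85% of members, beside 1.91% and 2.31% of all genes.

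Levels of different members were compared as CPM per kilobase of the longest transcript that GENCODE M21 ties to RefSeq, which all 37 members that passed had. On this scale *Cyp27a1* was the most abundant in *Foxo1f/f* uteri at 111, followed by *Cyp2d22* at 41.1, *Por* at 33.8 and *Cyp1b1* at 29.5. In *Foxo1d/d* uteri the level per kilobase was 94.7 for *Cyp27a1*, 35.1 for *Cyp2d22*, 35.1 for *Por* and 11.2 for *Cyp1b1*. *Cyp1b1* thereby went from rank 4 to rank 10 of the 37, while the leading gene was the same. The least abundant member that passed in *Foxo1f/f* uteri, per kilobase, was *Cyp3a16* at 0.125, which reached 0.396 in *Foxo1d/d* uteri. *Cyp2e1* went from 0.717 to 2.50 per kilobase, still under the level of *Cyp1b1* in either genotype. The 6 members that were over 1.5-fold higher therefore stayed in the lower part of the order, and the sterol hydroxylase gene led it in both genotypes.

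**Figure D3:**
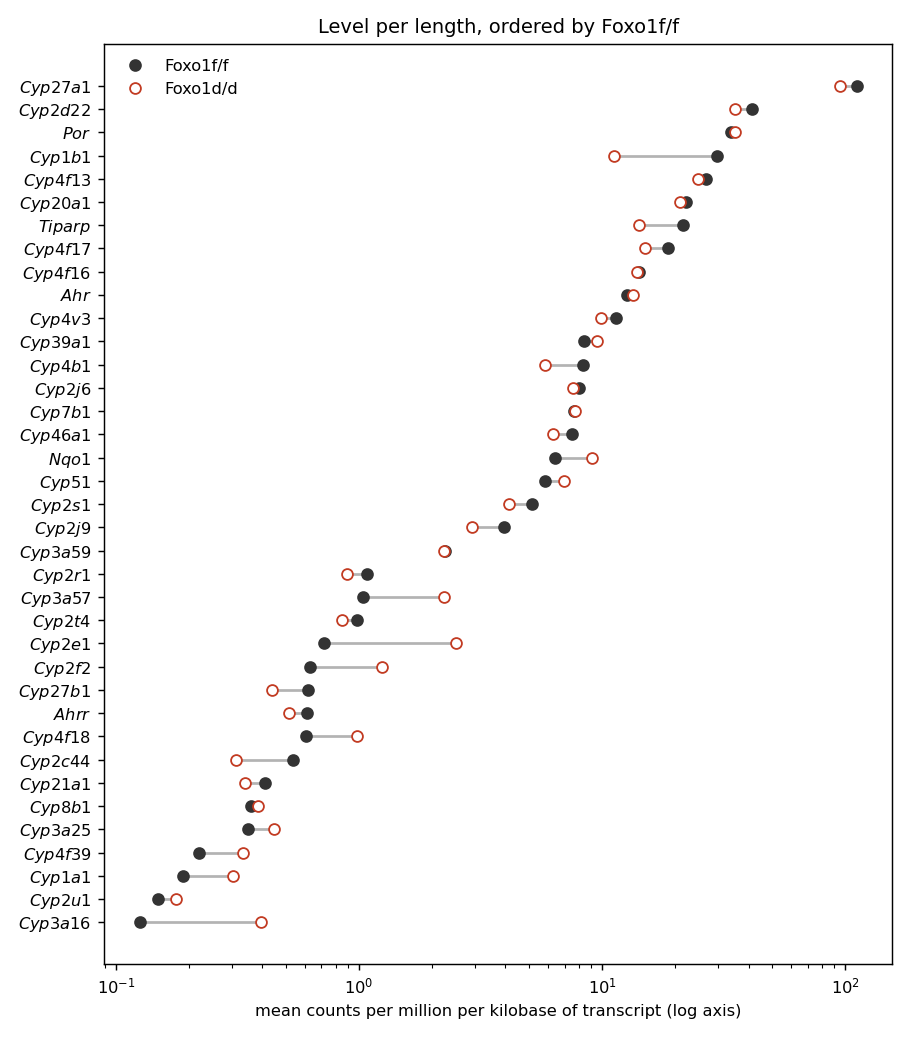
CPM per kilobase of transcript (horizontal, log axis) of the 37 members counted 10 or more times on average, ordered by the level in Foxo1f/f uteri. Filled points are Foxo1f/f, open points are Foxo1d/d, and a line joins the values of a gene. *Cyp27a1* leads at 111 and 94.7, and *Cyp1b1* goes from 29.5 to 11.2.

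Summed over the 98 P450 genes, the level was 851 CPM in *Foxo1f/f* against 691 CPM in *Foxo1d/d* uteri, a difference of -160.2 CPM and a log2 ratio of -0.30. *Cyp1b1* alone differed by -93.9 CPM. Without *Cyp1b1* the sums were 699 and 633 CPM, a log2 ratio of -0.14. On the scale per kilobase the sums were 342 and 292 with *Cyp1b1*, and 313 and 281 without it. More than any other member, *Cyp1b1* thus carried the lower total.

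The cell types of the organ were followed by marker lists beside these values. The 16 markers of stroma, smooth muscle and endothelium were all within 1.5-fold, with ratios from -0.43 for *Myh11* to 0.11 for *Col1a1*. Of the 16, 15 were lower in *Foxo1d/d* uteri, where 44.9% of all genes were. The summed level was 5444 and 5352 CPM for the stroma list, 6040.1 and 4895 CPM for smooth muscle, and 1127 and 969 CPM for endothelium. Per kilobase, *Col1a1* of stroma and *Pecam1* of endothelium were the most abundant in both genotypes, and for smooth muscle *Tagln* was in *Foxo1f/f* and *Acta2* in *Foxo1d/d* uteri. *Cyp1b1*, at -1.40, and *Tiparp*, at -0.60, were lower than any of these 16. Of the 7 epithelial markers, 6 were higher, where 55.1% of all genes were, and 1 was over 1.5-fold higher, beside 5.43% of all genes. *Krt19* had a ratio of 1.22 and *Krt18* of -0.03, *Cldn3* was the most abundant per kilobase, and the summed levels were 727 and 871 CPM. Among gland genes, *Prss29*, the most abundant, had a ratio of -4.46, *Sox9* of -0.30 and *Foxa2* of 0.04, and the summed level was 574 CPM in *Foxo1f/f* against 64.8 CPM in *Foxo1d/d* uteri. Of the oviduct markers, *Foxj1* had a ratio of 0.88, *Ovgp1*, the most abundant, of 0.17 and *Pax8* of -0.08, with summed levels of 166 and 177 CPM. No gene of these lists was at 0 in either genotype. The part of any cell type in the lower *Cyp1b1* and *Tiparp* was not tested.

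**Figure D4:**
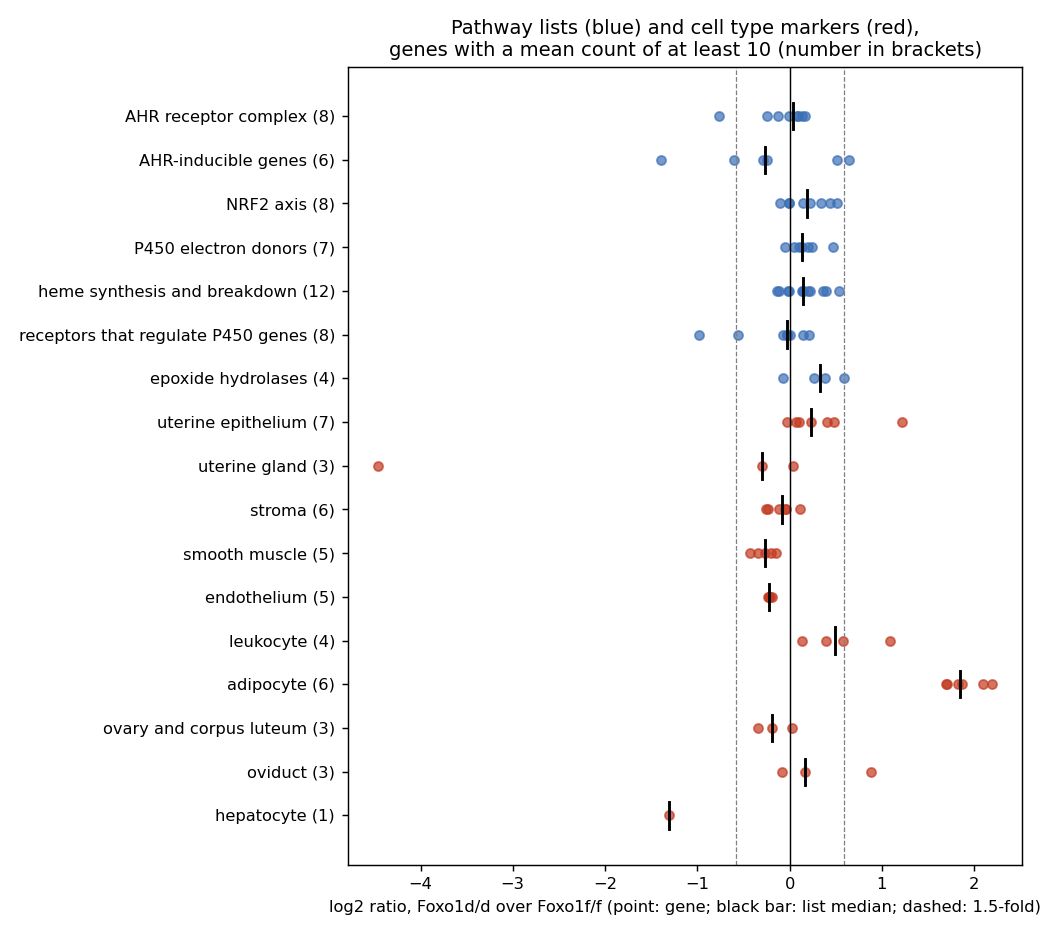
Log2 ratio, Foxo1d/d to Foxo1f/f, of mean counts (horizontal) of the genes counted 10 or more times on average in the pathway lists (blue) and the cell type marker lists (red). Points are genes, black bars are list medians and dashed lines mark 1.5-fold. The adipocyte markers stand together between 1.70 and 2.19, and the markers of stroma, smooth muscle and endothelium lie between -0.43 and 0.11.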

How the data were processed

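RNA-seq libraries were made from uteri with a poly(A) based TruSeq protocol and sequenced as paired ends. The authors trimmed the reads at their 5′ ends to 90 bases, used STAR for mapping and Picard to take out duplicates, and passed the HTSeq counts on RefSeq genes to edgeR. The paper names mm10 as the genome and the submitters' processing notes name mm9, while the coordinates here are those of RefSeq on GRCm38.p6, looked up by Entrez identifier. Tool versions, the treatment of reads that fit several genes and the use of strand are not given in the sources used here, so reads of a gene and an overlapping or near-identical gene could not be told apart. The deposited values are the authors' mean raw counts of each gene per genotype. The same table holds the authors' fold change, average log2 CPM, p-value and FDR, which were not used. The number of further columns with values of single samples is 0.

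Computed here were scaled ratios with a pseudocount of 1, exact Clopper-Pearson 95% counting intervals of the summed counts without a pseudocount, CPM, levels per kilobase (GENCODE M21), clusters, shared 90-base words and motif matches, with Python 3.11.15, numpy 2.4.6, pandas 2.3.3, scipy 1.17.1 and matplotlib 3.10.9. Fold values were taken without the pseudocount, while calls past 1.5-fold used the ratio with it. The ratio and interval steps were tested on simulated counts that held counting error alone, so the test does not cover differences between pools of mice. Named genes were all members counted 10 or more times on average over both genotypes, *Foxo1*, and members of the pathway lists past 1.5-fold. Further list genes, the members under that minimum and the split by counts were picked after the values were seen. The members and lists were chosen with earlier results of these data known. Of the listed genes, *Cyb5a*, *Spink1* and *Adgre1* were not matched by symbol. Alternatives tried were a pseudocount of 0.1, ratios centred on the median gene, upper quartile scaling, a mean count of at least 50, no filter on low counts and a fold threshold of 2.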

Additional observations from a re-analysis of the deposited data

How the results depend on the processing

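The signs of the ratios of *Foxo1* and of the 37 members held under a pseudocount of 0.1, and all but that of *Cyp7b1* held under centring on the median gene and under upper quartile scaling. Those scalings moved ratios by -0.02. With no filter on low counts, 12 of the 74 counted members were over 1.5-fold higher and 11 lower, or 16.2% and 14.9%, where 8.11% and 5.79% of all counted genes were. The main analysis had 6 and 3, or 16.2% and 8.11%, beside 5.43% and 3.51% of all genes. At a minimum mean count of 50, 2 of 24 members were higher and 2 lower, each 8.33%, beside 3.81% and 2.58% of all genes. With a fold threshold of 2, 3 members were higher and 1 lower, or 8.11% and 2.70%, beside 1.99% and 1.40% of all genes. A pseudocount of 0.1 gave 7 higher, or 18.9%, beside 5.57% of all genes. The median log2 ratio of the members was -0.08 in the main analysis and between -0.10 and -0.06 in the alternatives. No paired analysis was possible because only means per genotype were analysed here. For the same reason the fits without each library in turn and with TMM or DESeq2 size factors were not run. With so few counts, differences of members under a mean count of 10 rest on a handful of reads, and the spread between pools of mice is unknown.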
